A study of Mus musculus with 4 samples.

Results

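The cortical spots described here are those whose deposited region label reads Cortex RSP, IL, the retrosplenial cortex, called RSP below. They were chosen by that label alone, and 424 of the 10549 spots carried it: 77 in the 5xFAD-Dp16 section, 89 in the 5xFAD section, 109 in the Dp16 section and 149 in the Wild-type section. Visium captures RNA on an array of barcoded spots under a tissue section, so a spot is a small region that can hold several cells. The study placed 4 hemisphere sections on such arrays, 1 for each genotype, each 10 µm thick, from male mice aged 9 months and from tissue between bregma 1 and -2 mm. The 5xFAD-Dp16 mouse carried both alterations described next, the 5xFAD mouse and the Dp16 mouse 1 each, and the Wild-type C57BL/6J mouse neither. 5xFAD is a set of human transgenes that carry mutations of inherited Alzheimer's disease, driven in neurons by Thy1 elements, and it leads to amyloid plaques without the slower course of the human disease. Dp16 duplicates a segment of mouse chromosome 16 whose genes have their human counterparts on chromosome 21, and it leaves out the orthologues that lie on other mouse chromosomes. With 1 section per genotype, genotype, animal and section position cannot be told apart.

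Retrosplenial cortex lies along the midline behind the cingulate cortex and joins the hippocampal formation and the anterior thalamus in circuits for spatial memory and navigation. In humans it belongs to the areas whose metabolism falls early in Alzheimer's disease. Microglia that gather at plaques take up a known expression state in which the receptor gene Trem2 and its adaptor Tyrobp are raised, and astrocytes near plaques raise Gfap.

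Levels are given as CPM, a gene's summed unique molecular identifiers (UMIs) scaled to a common total over the same spots. RSP spots summed to between 586440 and 1717845 UMIs per section, with a median of 10766 UMIs per spot in 5xFAD-Dp16, 5720 in 5xFAD, 10017 in Dp16 and 11080 in Wild-type. Other cortex means the labels Cortex AUC, Cortex PTL and Cortex SSp together, 1759 spots. The 5xFAD section was thus the shallowest in RSP. A neighbouring label, Cortex RSP, CL, was present in the 5xFAD-Dp16 and Dp16 sections only, with 66 and 55 spots. In the Wild-type section 80 of the 204 AUC spots belonged to expression cluster 0, which held at most 3 spots of any other cortical label in a section, and Ttr stood at 2709 CPM in Wild-type other cortex with those spots and 534 CPM without them. Of 3164 spot barcodes 2879 occurred in more than 1 section, since the arrays share barcode positions. In a sum over spots, fewer cells of a type and less RNA per cell cannot be told apart.

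The 4 genes that mark this region were higher in RSP spots than in AUC, PTL and SSp spots in all 4 sections. Tshz2, a zinc-finger transcription factor, stood at 106, 93.8, 113 and 82.7 CPM in RSP spots of the 5xFAD-Dp16, 5xFAD, Dp16 and Wild-type sections, against 6.06, 10.1, 12.7 and 5.89 CPM in other cortex of the same sections. Leaving aside the adjoining RSP, CL, the next highest label was PTL in 5xFAD-Dp16, 5xFAD and Dp16, at up to 30.6 CPM, and the thalamus in Wild-type, at 30.9 CPM. Nrep, named for neuronal regeneration, averaged 171 ± 29.6 CPM in RSP spots and 51.5 ± 1.92 CPM in other cortex (SD, n = 4 sections). Stac2, an adaptor of voltage-gated calcium channels, averaged 105 ± 15.3 CPM in RSP spots and 47.9 ± 13.6 CPM in other cortex. Npnt, the matrix protein nephronectin, averaged 28.9 ± 7.51 CPM in RSP spots and 12.3 ± 2.50 CPM in other cortex, and its RSP level in 5xFAD-Dp16, 18.8 CPM, was near the 16.1 CPM of PTL there. Tshz2 and Nrep thus set the labelled spots apart from AUC, PTL and SSp in each section, with 95% Poisson intervals that did not overlap. For Stac2 the interval in Wild-type, 86.8 to 118 CPM, overlapped that of SSp, 66.5 to 101 CPM. For Npnt the RSP interval overlapped that of PTL in 5xFAD-Dp16, 5xFAD and Dp16 and that of SSp in Wild-type. The 4 markers were chosen with earlier results of these data known, so they describe the labelled spots and are no test of the label. The RSP, CL spots of 5xFAD-Dp16 and Dp16 carried the first 3 markers at levels at or above those of RSP, with Tshz2 at 109 and 114 CPM, Nrep at 222 and 246 CPM and Stac2 at 107 and 118 CPM. Npnt was lower there, at 14.7 CPM (7.83 to 25.2, Poisson 95% interval) in 5xFAD-Dp16, which overlapped the RSP interval, and 4.74 CPM (0.977 to 13.8) in Dp16.

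**Figure D1:**
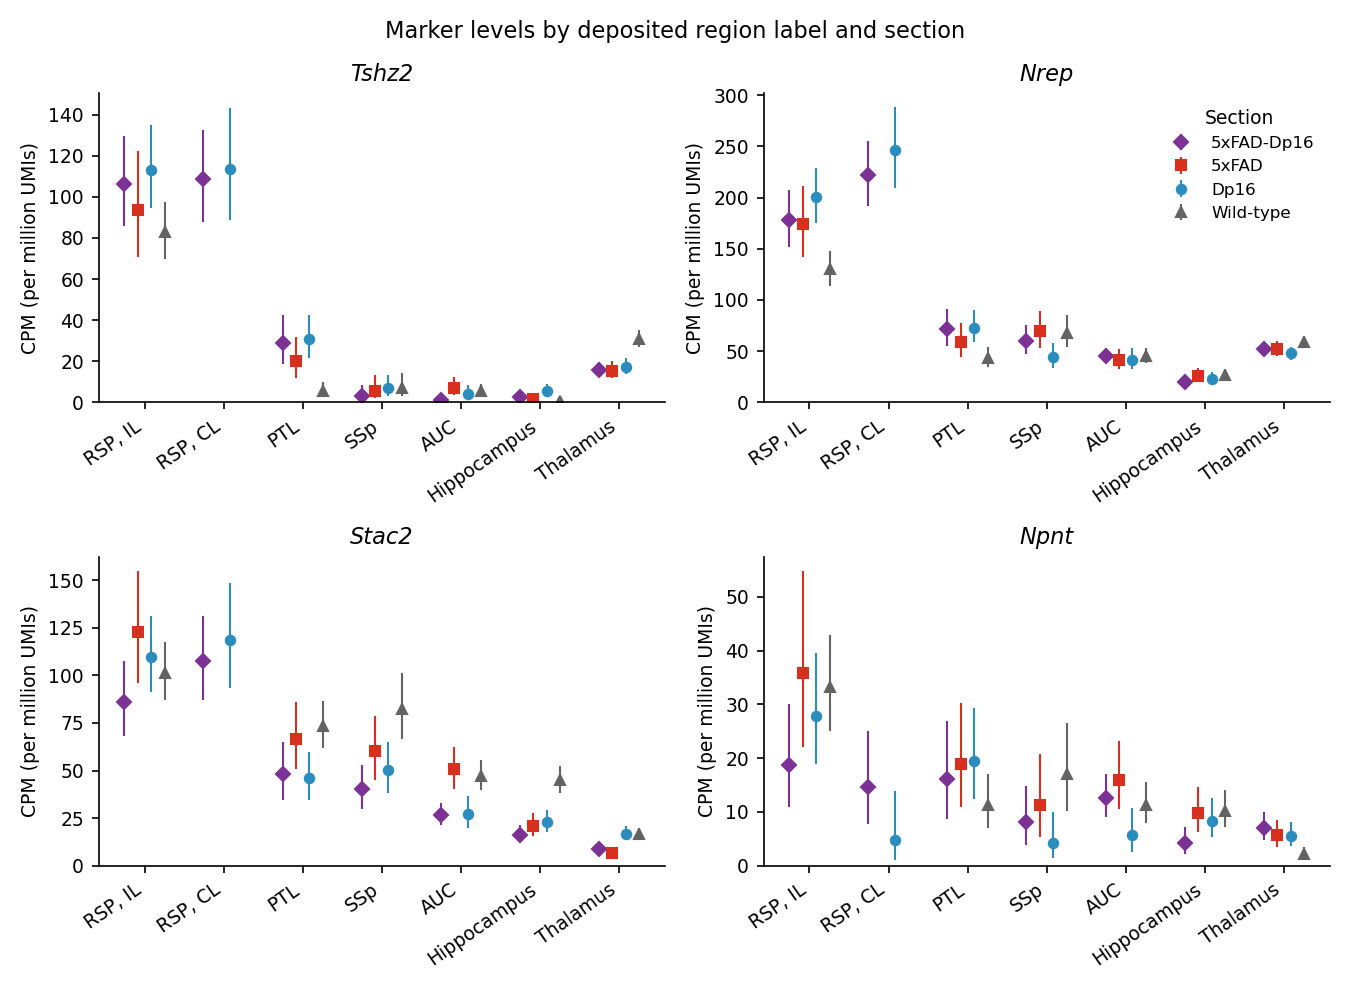
CPM of Tshz2, Nrep, Stac2 and Npnt (vertical axes) by deposited region label (horizontal axes), 1 point per section with a 95% Poisson interval that covers counting error only. The points of RSP, IL lie above those of PTL, SSp and AUC for each gene and section, for Tshz2 at 82.7 to 113 CPM. Some intervals of Stac2 and Npnt overlap. RSP, CL shares the high Tshz2, Nrep and Stac2 and has less Npnt in Dp16.

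Spot by spot, after each spot was thinned to 5000 UMIs, Tshz2 was seen in 38.7% of RSP spots in 5xFAD-Dp16, 33.9% in 5xFAD, 34.3% in Dp16 and 31.3% in Wild-type. The shares in other cortex were 3.47%, 3.86%, 5.22% and 3.13% in the same sections, and those in hippocampus, which should lack the gene, were 1.78%, 0.455%, 1.40% and 0.893%. The RSP shares thus lay far above the background of the same libraries. Thinning left out 2, 30, 7 and 15 shallower RSP spots, and without it the RSP shares were 61.0%, 42.7%, 56.0% and 49.0%.

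RSP spots were next set against other cortex, with the 4 sections as replicates and the section as a block, to ask which genes differ in the region over sections of 4 genotypes. Of 10741 genes tested with edgeR's quasi-likelihood test, 631 were higher in RSP spots (5.87%) and 548 lower (5.1%) at an adjusted p under 0.05. Against single labels, 638 genes were higher and 582 lower than in AUC (5.93% and 5.41%), 424 and 423 than in PTL (3.96% and 3.95%) and 209 and 243 than in SSp (1.95% and 2.27%). Of all genes, 262 passed against the pool and each label and pointed the same way in the 4 sections, 127 higher and 135 lower. Leaving out the Dp16 section gave 372 higher and 306 lower, and leaving out the 5xFAD-Dp16 section 396 and 349. The labels do not say how this region was outlined, and whether any of these genes helped to draw it was not tested.

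C1ql2, a C1q-like protein known from mossy fibre synapses, was the highest gene in RSP after Tshz2. It stood at 27.6, 18.8, 36.9 and 7.57 CPM in RSP spots of the 5xFAD-Dp16, 5xFAD, Dp16 and Wild-type sections, against 4.59, 2.01, 4.83 and 0.637 CPM in other cortex, a log2 difference of 2.91 (SE 0.27, adjusted p = 1.39e-10). Cbln1, cerebellin 1, a bridge between neurexins and glutamate receptors, reached 40.9, 54.6, 53.0 and 9.31 CPM in RSP spots of those sections and 4.22, 5.75, 5.34 and 4.94 CPM in other cortex, 2.78 (SE 0.31, adjusted p = 1.6e-05) on the log2 scale. Its RSP level was far lower in Wild-type than in the other sections, though still above that of other cortex. Htr2c, a serotonin receptor, stood at 61.9, 54.6, 54.8 and 37.8 CPM in RSP spots and 7.53, 5.46, 7.89 and 8.12 CPM in other cortex of the same 4 sections, a log2 difference of 2.78 (SE 0.18, adjusted p = 6.75e-15). Slc17a6, the vesicular glutamate transporter VGLUT2 that is sparse in most of cortex, had 57.5, 49.5, 71.9 and 43.1 CPM in RSP spots against 17.6, 15.8, 16.3 and 15.3 CPM in other cortex, 1.77 (SE 0.15, adjusted p = 1.01e-11). For these 4 genes no RSP value overlapped a value of other cortex.

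Others named by the same ranking were Urah, a purine-degrading enzyme (log2 difference 2.00), Zfpm2, a cofactor of GATA factors (1.51), Nrtn, the growth factor neurturin (1.44), Tekt5, a tektin filament protein (1.38), and Sv2c, a synaptic vesicle glycoprotein (1.34). Pygm, a glycogen phosphorylase, had 60.8, 64.8, 57.5 and 25.03 CPM in RSP spots of the 5xFAD-Dp16, 5xFAD, Dp16 and Wild-type sections and 18.4, 16.7, 20.1 and 19.6 CPM in other cortex (1.35, SE 0.20, adjusted p = 8.91e-05). Amn, the membrane protein amnionless, had 53.1, 56.3, 60.2 and 27.9 CPM in RSP spots and 18.0, 17.8, 18.3 and 19.4 CPM in other cortex (1.34, SE 0.17, adjusted p = 3.43e-07). Both were higher in RSP in each section, least so in Wild-type. In RSP, CL spots of 5xFAD-Dp16 and Dp16, Pygm stood at 81.5 and 85.3 CPM and Amn at 37.3 and 37.9 CPM. Gfap, the astrocyte filament gene, had 269, 206, 36.0 and 22.7 CPM in RSP spots against 86.1, 92.5, 21.1 and 11.3 CPM in other cortex (1.31, SE 0.12, adjusted p = 1.54e-10). It was higher in RSP within each section, and the 5xFAD-Dp16 and 5xFAD sections lay far above the others in both areas.

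Among the genes lowest in RSP, Myl4, a myosin light chain, had 11.1, 13.6, 4.49 and 35.5 CPM in RSP spots of the 5xFAD-Dp16, 5xFAD, Dp16 and Wild-type sections, against 67.2, 99.4, 65.9 and 110.2 CPM in other cortex (-2.22, SE 0.22, adjusted p = 4.16e-06), and Myh7, a myosin heavy chain, differed by -1.88. The RSP values of Myl4 did not overlap those of other cortex, and Wild-type was the highest section in RSP. Kcnip2, the auxiliary subunit KChIP2 of Kv4 potassium channels, had 73.0, 37.5, 55.7 and 73.3 CPM in RSP spots and 190.0, 158, 139.7 and 179.8 CPM in other cortex (-1.40, SE 0.10, adjusted p = 4.52e-13). Nptxr, the neuronal pentraxin receptor that helps to cluster AMPA receptors, had 66.3, 118, 91.7 and 164 CPM in RSP spots and 275, 272, 270.2 and 327 CPM in other cortex (-1.36, SE 0.16, adjusted p = 0.00121), and its partner Nptx2 differed by -1.499. Cnih3, an auxiliary AMPA receptor subunit (-1.26), Hs3st2, a heparan sulfate sulfotransferase (-1.28), Tmem163, a zinc transporter (-1.79), and Ipcef1 (-1.34) were lower as well.

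**Figure D2:**
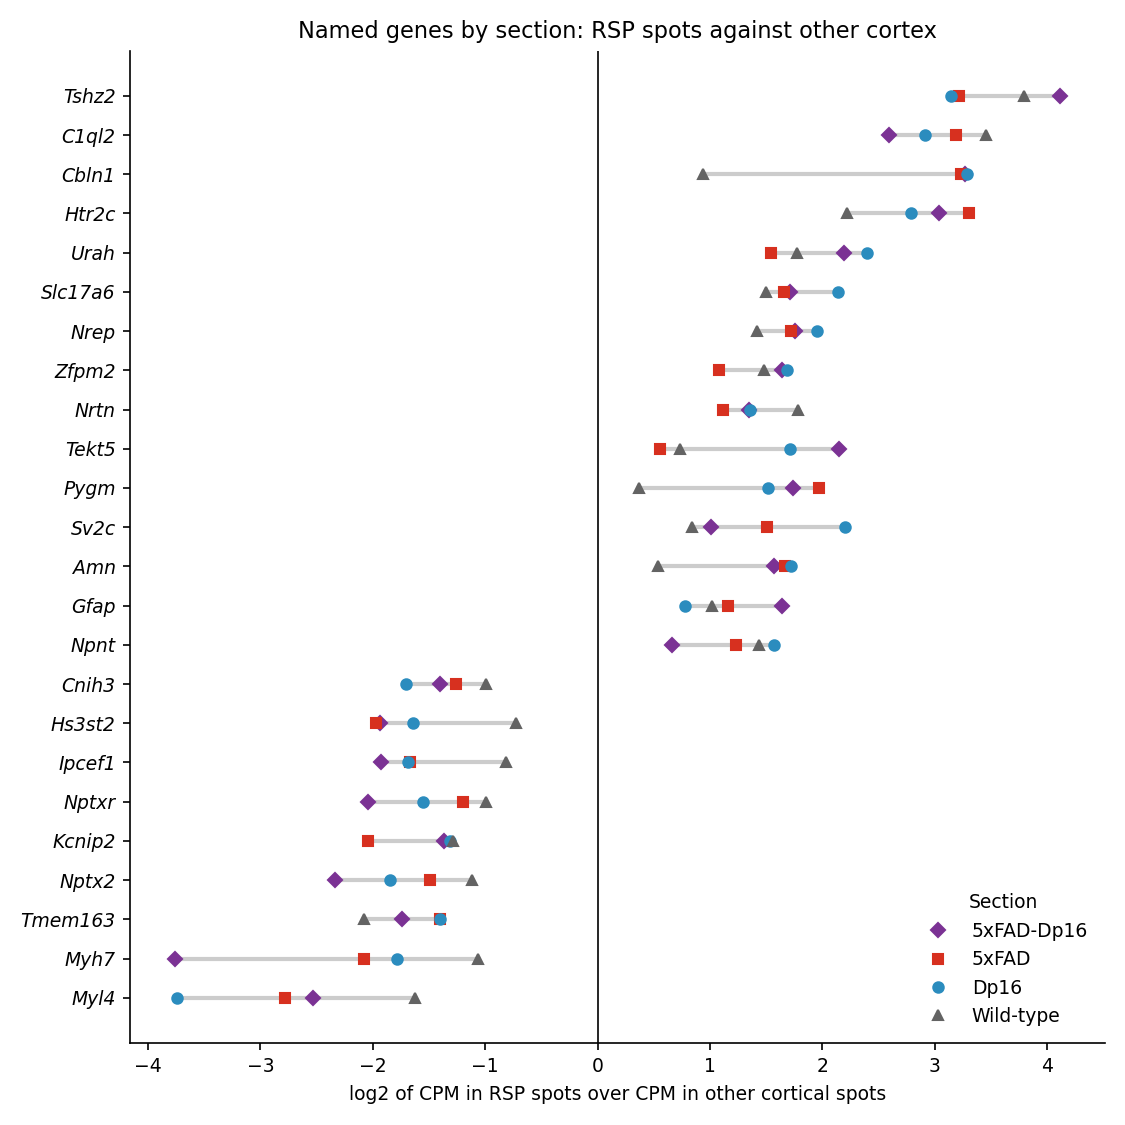
log2 of CPM in RSP spots over CPM in other cortical spots (horizontal axis) for genes named by rank (vertical axis), 1 point per section and a grey line over the range of the 4 sections. Tshz2 and C1ql2 lie far to the right in every section, Myl4 to the left, and Cbln1 is set apart by its low Wild-type point at 0.94.

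Genes of cortical layers differed in both directions. Of 11 layer 5 genes tested, 5 were higher in RSP spots, among them Parm1 (1.16), the transcription factor Etv1 (1.02) and the sodium channel subunit Scn4b (0.80), and 2 were lower, Pcp4 (-1.09) and Crym (-0.55). Pcp4, a calmodulin regulator, had 1034, 645, 1045 and 903 CPM in RSP spots of the 5xFAD-Dp16, 5xFAD, Dp16 and Wild-type sections, against 2379, 1535, 2383 and 1592 CPM in other cortex. Of 10 upper layer genes 1 was higher, Lamp5 (0.36), and 3 were lower, Cux2 (-0.94), Wfs1 (-0.83) and Cdh13 (-0.77). Rorb, the receptor that marks layer 4, was lower (-1.38, SE 0.21, adjusted p = 5.88e-06), while Rspo1, a Wnt agonist also listed for layer 4, was higher (0.81). Layer 6 and 6b genes had no higher member of 5 and 4, and Rprm (-1.14), Igsf21 (-0.89), Nr4a2 (-1.01) and Tmem163 were lower. The median log2 difference was 0.10 for layer 5, -0.64 for upper layers, -0.23 for layer 6 and -0.45 for layer 6b, beside 0.00 over all genes tested.

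Activity-regulated genes were lower in RSP spots, 11 of 18 and none higher, with a median log2 difference of -0.65. Egr1, an activity-induced transcription factor, had 112, 143, 115 and 231 CPM in RSP spots of the 5xFAD-Dp16, 5xFAD, Dp16 and Wild-type sections, against 238, 290.2, 215 and 448 CPM in other cortex, a log2 difference of -0.96 (SE 0.08, adjusted p = 3.85e-12). Each section was lower in RSP than in other cortex, and Wild-type was the highest section in both. Fos differed by -0.75, Arc by -0.64, Homer1 by -0.91, the neurotrophin gene Bdnf by -0.96 and Egr2 by -1.36. Ier5 (-0.12) and Fosl2 (0.13) did not pass the test. When olfactory cortex and subplate were added to the other cortex, Arc and Fos were instead 0.33 and 0.03 higher on the log2 scale in RSP.

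Of 33 genes of glutamatergic synapses, 8 were lower and none higher in RSP spots, with a median of -0.13. They included Stx1a, a syntaxin of vesicle fusion (-0.78), the pentraxin Nptx1 (-0.69), the NMDA receptor subunit Grin2b (-0.51) and the vesicle protein Syt1 (-0.26), while Snap25 did not pass (-0.04). Slc17a7, the main cortical vesicular glutamate transporter VGLUT1, had 328, 476, 429 and 643 CPM in RSP spots of the 5xFAD-Dp16, 5xFAD, Dp16 and Wild-type sections, against 575, 689, 615 and 713 CPM in other cortex (-0.46, SE 0.08, adjusted p = 0.0009). It was thus lower in RSP in each section while Slc17a6 was higher. Of 25 potassium channel genes, 8 were higher, among them Kcnab1 (0.84) and the pacemaker channel Hcn2 (0.49), and 4 lower, Kcnip2, Kcnq3 (-0.96), Kcnk2 (-0.85) and Kcnh1 (-0.82). Of 15 inhibitory neuron genes, Gad1, which makes GABA (0.33), and Kit (0.78) were higher and Cck lower (-0.37).

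Many glial and vessel genes were higher in RSP spots. All 23 myelin and oligodendrocyte genes tested were higher, with a median log2 difference of 0.72. Mbp, myelin basic protein, had 2075, 2188, 1988 and 2214 CPM in RSP spots of the 5xFAD-Dp16, 5xFAD, Dp16 and Wild-type sections, against 1038, 1193, 1187 and 1299 CPM in other cortex (0.87, SE 0.05, adjusted p = 1.05e-15), with no overlap. Of 14 astrocyte genes, 8 were higher and none lower, such as Gja1, connexin 43 (0.61), and Aldoc (0.51), while Slc1a2 did not pass (0.09). Of 13 vessel genes, 6 were higher, with a median of 0.39, including Vtn (0.68) and the smooth muscle gene Acta2 (1.63). Of 9 genes of the meninges, the membranes over the brain, 4 were higher, Myoc (2.35), Fmod (2.22), Slc6a13 (1.37) and Col1a2 (1.25).

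Summed over the 18 meningeal markers in the matrix, RSP spots held 219, 131, 365 and 109 CPM in the 5xFAD-Dp16, 5xFAD, Dp16 and Wild-type sections, against 139, 84.2, 122 and 125 CPM in other cortex. The Dp16 section was highest and Wild-type lowest in RSP. The defining hippocampal markers summed to 210.0, 247, 275 and 275 CPM in RSP and 208, 230.4, 217 and 230.1 CPM in other cortex, of which 3 of 8 tested were higher (C1ql2, Prox1 and Cabp7). The myelin genes summed to 6472, 6471, 5457 and 6405 CPM in RSP and 3829, 4045, 3491 and 3716 CPM in other cortex. What part these other tissues have in the region differences was not tested. Without expression clusters 12 and 13, 24 of the 25 genes named by rank still passed.

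Of 38 plaque-associated microglial genes, 16 were higher in RSP spots and none lower, with a median of 0.30. Trem2 differed by 0.63 (SE 0.14, adjusted p = 0.00181), Tyrobp by 0.44 (SE 0.12, adjusted p = 0.0245) and Apoe, the lipid carrier, by 0.49 (SE 0.09, adjusted p = 0.00932). By section the log2 ratio of Trem2 was 0.89, 0.86, 0.09 and -0.07 and that of Tyrobp 0.47, 0.82, -0.09 and 0.22 in 5xFAD-Dp16, 5xFAD, Dp16 and Wild-type, so both were clearly above 0 in the 5xFAD carriers and near 0 or mixed in the other sections. Apoe was above 0 in each section. Cst7, which encodes cystatin F, stood at 132 and 135 CPM in RSP spots of the 5xFAD-Dp16 and 5xFAD sections, against 99.5 and 62.6 CPM in other cortex of the same sections. In the Dp16 and Wild-type sections RSP spots held no Cst7 UMI. Of 10 antigen-presentation genes, 6 were higher with a median of 0.70, such as the class I gene H2-D1 (0.71) and the class II gene H2-Ab1 (1.72). C4b, complement component 4, was also higher (0.94, SE 0.18, adjusted p = 0.000313), and of 13 homeostatic microglial genes 1 was.

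Genotypes were compared within RSP spots to ask how the transgenes and the duplication show there, in 2 pairs of sections each. There is no replicate check and no p-value, and intervals of ratios are 95% exact intervals for counting error only. A gene was called where it differed at least 1.5-fold the same way in both pairs, among 6388 genes whose mean reached 20 CPM. The 5xFAD effect has a first pair, 5xFAD over Wild-type, and a second pair, 5xFAD-Dp16 over Dp16. The Dp16 effect has Dp16 over Wild-type as its first pair and, as its second, 5xFAD-Dp16 over 5xFAD. Ratios are given on the log2 scale, first pair before second. The 2 effects share all 4 sections.

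For the 5xFAD effect 61 genes were called higher (0.955%) and 85 lower (1.33%). The first pair alone had 309 genes higher (4.84%) and 586 lower (9.17%), and the second 331 (5.18%) and 414 (6.48%). Thy1, whose regulatory elements drive the transgenes, had 1677 and 2532 CPM in the 5xFAD-Dp16 and 5xFAD sections, against 531 and 553 CPM in the Dp16 and Wild-type sections. The pairs of sections did not overlap, so the libraries follow their 5xFAD labels at this gene. The mouse gene App had ratios of -0.24 and -0.10.

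The highest genes were microglial and astrocytic. Cst7 had 119 and 79 UMIs in RSP spots of the 5xFAD-Dp16 and 5xFAD sections, against 0 and 0 UMIs in the Dp16 and Wild-type sections. Against a floor of 3 counts per section, its log2 ratio was 6.27 in 5xFAD over Wild-type and 5.61 in 5xFAD-Dp16 over Dp16. With counting error, the exact lower limits of these ratios were 5.94 and 5.29. Trem2 had 151 and 157 CPM in the 5xFAD-Dp16 and 5xFAD sections, against 22.5 and 21.0 CPM in the Dp16 and Wild-type sections, with ratios of 2.90 (2.33 to 3.50) and 2.75 (2.13 to 3.43). Both 5xFAD carriers were thus close together and far from both non-carriers. Tyrobp, the Trem2 adaptor, had 423 and 486 CPM in the 5xFAD-Dp16 and 5xFAD sections, against 88.1 and 89.1 CPM in the Dp16 and Wild-type sections, with ratios of 2.45 (2.16 to 2.74) and 2.26 (1.94 to 2.60). Gfap had 269 and 206 CPM in the 5xFAD-Dp16 and 5xFAD sections, against 36.0 and 22.7 CPM in the Dp16 and Wild-type sections, with ratios of 3.18 (2.65 to 3.74) and 2.90 (2.41 to 3.42), while in other cortex its ratios were 3.03 and 2.03.

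The chemokine gene Ccl6 had 36.5 and 56.3 CPM in the 5xFAD-Dp16 and 5xFAD sections, against 1.80 and 2.91 CPM in the Dp16 and Wild-type sections, and the lysozyme gene Lyz2 had 127 and 114 CPM in the 5xFAD-Dp16 and 5xFAD sections, against 29.7 and 10.5 CPM in the Dp16 and Wild-type sections. Their ratios were 4.27 and 4.34 for Ccl6 and 3.45 and 2.10 for Lyz2. Lyz2 was higher in Dp16 than in Wild-type as well, so its second ratio was the smaller. Cd52, a surface glycoprotein of immune cells, had ratios of 2.98 and 2.23 and C4b of 2.50 and 1.97. Microglial genes and Gfap therefore filled the highest ranks in RSP.

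**Figure D3:**
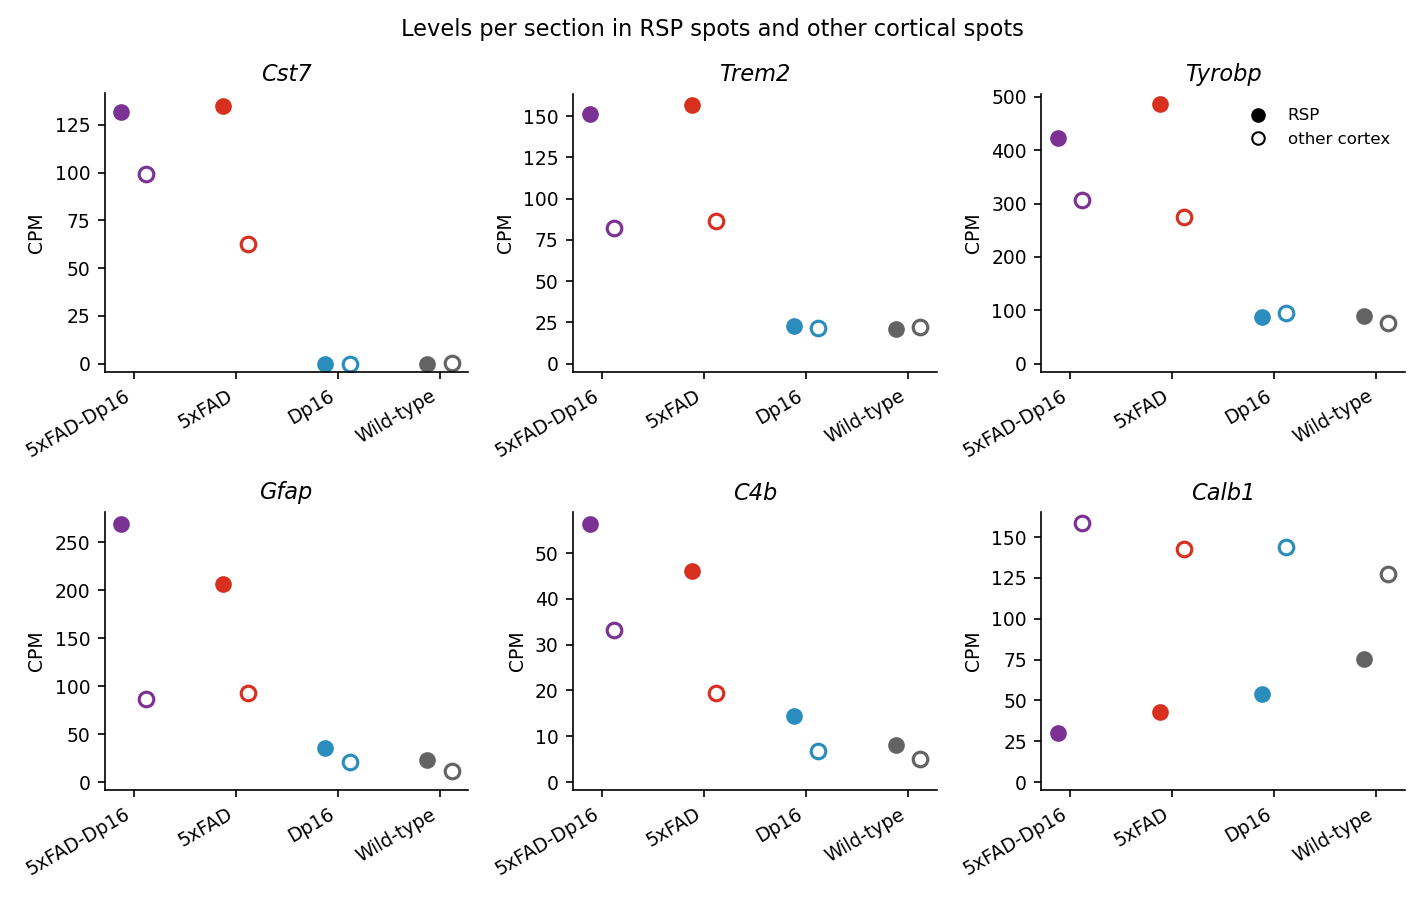
CPM (vertical axes) of Cst7, Trem2, Tyrobp, Gfap, C4b and Calb1 in each section (horizontal axes), filled points for RSP spots and open points for other cortical spots. The 5 glial genes are high in the 5xFAD-Dp16 and 5xFAD sections and higher in RSP than in other cortex there, and Calb1 is lowest in RSP spots of 5xFAD-Dp16 at 29.8 CPM.

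Of 31 plaque-associated microglial genes compared, 22 were called higher and 29 were above 0 in both pairs, beside 1478 of all 6388 genes above 0. Their medians were 1.44 and 1.05 in RSP and 0.74 and 0.96 in other cortex, beside -0.07 and 0.01 over all genes in RSP. The list holds 46 genes, and a member could pass the filter on mean CPM through the 5xFAD carriers alone. The lists were also chosen with earlier results of these data known, so such counts are a description only. Ctsd, a lysosomal protease, had 699.8 and 766 CPM in the 5xFAD-Dp16 and 5xFAD sections, against 227 and 236 CPM in the Dp16 and Wild-type sections, and Cd9, a tetraspanin, had 118 and 165 CPM in the 5xFAD-Dp16 and 5xFAD sections, against 46.7 and 48.9 CPM in the Dp16 and Wild-type sections. Apoe, with ratios of 0.81 and 0.37, and Ctsb, with 0.43 and 0.29, were not called. Of 8 complement genes listed 4 were compared, and all 4 were called higher, with medians of 1.75 and 1.36 in RSP and 1.14 and 1.09 in other cortex. C1qa had 196 and 234 CPM in the 5xFAD-Dp16 and 5xFAD sections, against 70.1 and 74.5 CPM in the Dp16 and Wild-type sections. Of 6 homeostatic microglial genes, 3 were called higher, among them Csf1r and Fcrls. P2ry12, a receptor of resting microglia, was not, with 21.0 and 51.2 CPM in the 5xFAD-Dp16 and 5xFAD sections, against 20.7 and 25.6 CPM in the Dp16 and Wild-type sections. The single value of 51.2 CPM in the 5xFAD section stood above the other 3.

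Of 5 antigen-presentation genes B2m and H2-D1 were called higher, and Cd74, listed with plaque microglia, had 25.4 and 63.1 CPM in the 5xFAD-Dp16 and 5xFAD sections, against 20.7 and 2.91 CPM in the Dp16 and Wild-type sections. Cd74 was thus low in Wild-type only. Of 3 reactive astrocyte genes, Gfap and Serpina3n, a protease inhibitor with ratios of 1.63 and 1.41, were called and Vim, with 1.45 and 0.13, was not. Without plaque and neighbour spots the second Serpina3n ratio was 0.54, from 2 UMIs in the 13 RSP spots left in 5xFAD-Dp16. None of 14 astrocyte genes and none of 22 myelin genes was called, with medians of 0.10 and 0.07 and -0.01 and 0.34. Vtn, vitronectin, was the only one of 6 vessel genes called, with 95.1 and 107 CPM in the 5xFAD-Dp16 and 5xFAD sections, against 43.1 and 54.1 CPM in the Dp16 and Wild-type sections, and ratios in other cortex of 0.13 and 0.30.

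The genes lowest with 5xFAD had modest levels. Tenm2, a teneurin of synaptic adhesion, had 17.7 and 20.5 CPM in the 5xFAD-Dp16 and 5xFAD sections, against 39.6 and 50.1 CPM in the Dp16 and Wild-type sections, with log2 ratios of -1.29 (-2.30 to -0.41) and -1.16 (-2.09 to -0.31) in RSP and -0.33 and 0.02 in other cortex. Arhgap33 had ratios of -1.28 and -1.05 and Ajap1 of -0.95 and -1.18, while Nol4 rested on 13 and 4 UMIs in 5xFAD-Dp16 and 5xFAD, against 33 and 54 in Dp16 and Wild-type. Without plaque and neighbour spots the ratio of 5xFAD-Dp16 over Dp16 was 0.06 for Ajap1 and 0.06 for Arhgap32. That setting left 13 RSP spots and 127841 UMIs in 5xFAD-Dp16, so these ratios rest on few UMIs. Of 27 synaptic genes none was called and 19 were below 0 in both pairs, beside 1906 of all 6388 genes. Their medians were -0.22 and -0.23 in RSP and -0.16 and -0.14 in other cortex. Slc17a7 had ratios of -0.44 (-0.63 to -0.24) and -0.39 (-0.60 to -0.17), against -0.05 and -0.10 in other cortex. Of 5 genes listed for hippocampus, Spink8, Hs3st4 and Cabp7 were called lower, with medians of -0.65 and -0.74. With the filter at 5 CPM the first median was 0.07. The calcium-binding Cabp7 had 22.1 and 29.0 CPM in the 5xFAD-Dp16 and 5xFAD sections, against 36.9 and 50.1 CPM in the Dp16 and Wild-type sections.

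Plaque marks were dense in RSP. The deposited marks gave plaques in 21 of 77 RSP spots of 5xFAD-Dp16, 27.3% (95% exact interval 17.7 to 38.6%), and in 18 of 89 of 5xFAD, 20.2% (12.4 to 30.1%). In other cortex the shares were 19.5% and 12.4%, made up of 9.74% and 8.61% in AUC, 26.4% and 15.4% in PTL and 27.4% and 16.3% in SSp of the 5xFAD-Dp16 and 5xFAD sections. RSP shares thus lay within the intervals of PTL and SSp and above AUC. Spots that were plaques or their neighbours made up 83.1% (72.9 to 90.7%) and 69.7% (59.0 to 79.0%) of RSP spots, against 47.5% (42.8 to 52.2%) and 36.3% (31.9 to 41.0%) of other cortex. Those intervals of RSP and other cortex did not overlap in either section. The adjoining RSP, CL of 5xFAD-Dp16 had 25.8% plaque spots and 68.2% (55.6 to 79.1%) plaque or neighbour spots. The latter interval overlapped that of RSP and lay above that of other cortex, so the high share was not particular to RSP. The marks were taken as deposited, the labels do not say how they were made, and the intervals treat neighbouring spots as independent. Cst7 or Itgax was seen, after thinning, in 25.3% and 37.3% of RSP spots of 5xFAD-Dp16 and 5xFAD, against 0 of the RSP spots of Dp16 and Wild-type, which allows up to 2.94% and 2.24% by a floor of 3 counts and has exact 95% upper limits of 3.55% and 2.72%.

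In both sections the share of plaque and neighbour spots and the levels of Trem2, Tyrobp and Cst7 were higher in RSP than in other cortex. Between the sections the RSP intervals of that share overlapped, at 72.9 to 90.7% in 5xFAD-Dp16 and 59.0 to 79.0% in 5xFAD. Trem2 stood at 151 and 157 CPM and Tyrobp at 423 and 486 CPM in RSP of those sections. No order of the sections is read from these values. What part the share has in these levels was not tested. Plaque spots were set against unmarked spots within RSP, 21 against 13 in 5xFAD-Dp16 and 18 against 27 in 5xFAD. Of 5944 genes, 276 passed 1.5-fold upwards in both sections (4.64%) and 252 lower (4.24%). The sums were small, 282062 and 115570 UMIs for plaque spots and 127841 and 182343 UMIs for unmarked spots of 5xFAD-Dp16 and 5xFAD, so most single genes rested on a few UMIs. The highest by rank included Sdhaf2, Dkc1, Phf6 and Slc35e1 with at most 2 UMIs in unmarked spots, and Nudt9 with 35 and 13 UMIs in plaque spots of 5xFAD-Dp16 and 5xFAD against 5 and 4 in unmarked spots.

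The known plaque genes had more counts. Tyrobp had 596 CPM in plaque spots and 289 CPM in unmarked spots of the 5xFAD-Dp16 section, a log2 ratio of 1.04 (0.52 to 1.60), and 562 CPM in plaque spots and 449.7 CPM in unmarked spots of the 5xFAD section, 0.32 (-0.17 to 0.81). In other cortex it had 679 CPM in plaque spots and 222 CPM in unmarked spots of 5xFAD-Dp16, 1.61 (1.45 to 1.77), and 670.1 CPM in plaque spots and 171 CPM in unmarked spots of 5xFAD, 1.97 (1.75 to 2.19). In 5xFAD the interval of RSP therefore lay wholly below that of other cortex, and in 5xFAD-Dp16 the point estimate of RSP was the smaller. Cst7 had 138 CPM in plaque spots and 148 CPM in unmarked spots of RSP in 5xFAD, a ratio of -0.10 (-1.09 to 0.85), but 219 CPM in plaque spots and 21.6 CPM in unmarked spots of other cortex, a ratio of 3.34 (2.82 to 3.88). In 5xFAD-Dp16 its ratios were 1.26 (0.27 to 2.40) in RSP and 1.60 (1.33 to 1.88) in other cortex. Unmarked RSP spots of 5xFAD thus held as much Cst7 as the plaque spots there.

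Set against the unmarked spots of other cortex, unmarked RSP spots had log2 ratios for Cst7 of 0.05 (-1.03 to 0.96) in 5xFAD-Dp16 and 2.77 (2.03 to 3.49) in 5xFAD. For Tyrobp these were 0.38 (-0.14 to 0.86) and 1.40 (1.03 to 1.75), for Trem2 0.50 (-0.53 to 1.37) and 0.91 (0.13 to 1.62), and for Gfap 1.46 (0.74 to 2.12) and 2.38 (1.79 to 2.95). Gfap was higher in unmarked RSP spots in both sections, and the intervals of the 3 microglial genes lay above 0 in 5xFAD and spanned 0 in 5xFAD-Dp16. Of 32 plaque-associated microglial genes 4 were called higher in plaque spots of RSP, with medians of 0.53 in 5xFAD-Dp16 and 0.16 in 5xFAD, beside 0.90 and 1.18 in other cortex and 0.01 and 0.01 over all genes in RSP. Ptgds, prostaglandin D synthase of meninges and oligodendrocytes, had 4382 CPM in plaque spots and 1275 CPM in unmarked spots of RSP in 5xFAD-Dp16 and 831 CPM in plaque spots and 3236 CPM in unmarked spots in 5xFAD. Its direction thus differed between the sections, and what part the makeup of these few spots has in the contrast was not tested.

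**Figure D4:**
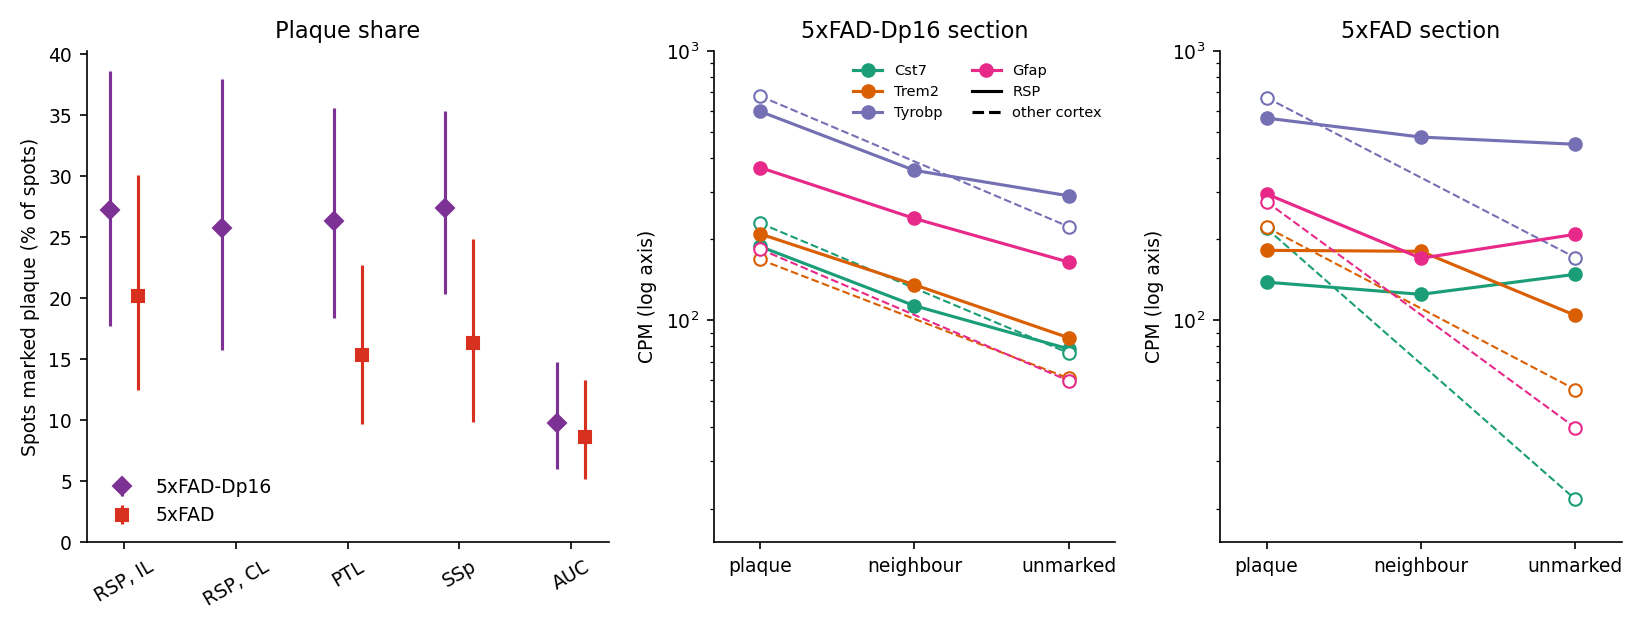
Left, share of spots marked plaque (vertical axis, percent, 95% exact interval) by cortical label in the 5xFAD-Dp16 and 5xFAD sections. Middle and right, CPM (log axis) of Cst7, Trem2, Tyrobp and Gfap in plaque, neighbour and unmarked spots, solid lines for RSP and dashed lines for other cortex (plaque and unmarked only): Cst7 in 5xFAD runs flat in RSP, at 138 and 148 CPM in plaque and unmarked spots, and steeply in other cortex, at 219 and 21.6 CPM.

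For the Dp16 effect 63 genes were called higher in RSP (0.986%) and 78 lower (1.22%). The first pair alone had 274 genes higher (4.29%) and 408 lower (6.39%), and the second 738 (11.6%) and 565 (8.84%). Of the genes higher in both, 46 lay outside the list of genes in the duplicated segment. Over all 6388 genes, 2120 were above 0 and 1834 below 0 in both pairs. Of 41 segment genes compared, 17 were called higher and none lower, 38 were above 0 in both pairs, and the medians were 0.58 and 0.82. In other cortex they were 0.46 and 0.56, and for 41 genes of chromosome 16 outside the segment they were -0.04 and 0.06 in RSP. The libraries thus follow their Dp16 labels.

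Among segment genes, Atp5j, a subunit of mitochondrial ATP synthase, had 1815 and 1747 CPM in the 5xFAD-Dp16 and Dp16 sections, against 965 and 964 CPM in the 5xFAD and Wild-type sections, with log2 ratios of 0.86 (0.76 to 0.95) and 0.91 (0.77 to 1.05). Cfap298, a cilia protein, had 90.7 and 84.5 CPM in the 5xFAD-Dp16 and Dp16 sections, against 34.1 and 39.6 CPM in the 5xFAD and Wild-type sections, with ratios of 1.09 (0.63 to 1.57) and 1.41 (0.69 to 2.19). Mrps6, a mitochondrial ribosomal protein, had 157 and 133 CPM in the 5xFAD-Dp16 and Dp16 sections, against 66.5 and 66.4 CPM in the 5xFAD and Wild-type sections, with ratios of 1.00 and 1.24. In each of these both Dp16 carriers lay above both sections without the duplication. Ifnar2, an interferon receptor subunit, had ratios of 0.92 and 0.84, Vps26c, of a recycling complex, 0.90 and 1.04, and Hspa13 0.97 and 0.91. Genes often studied in Down syndrome did not reach 1.5-fold in both pairs: App had ratios of 0.28 and 0.42, the kinase gene Dyrk1a 0.79 and 0.30, the calcineurin regulator Rcan1 0.32 and 0.68 and Sod1 0.62 and 0.21. Each of them was above 0 in both pairs, so the lack of a call does not mean that they were unchanged. The lowest of the segment were Dscam (0.77 and -0.55), Hunk (-0.37 and -0.34) and Son (0.57 and -0.01), and Hunk alone was below 0 in both pairs.

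**Figure D5:**
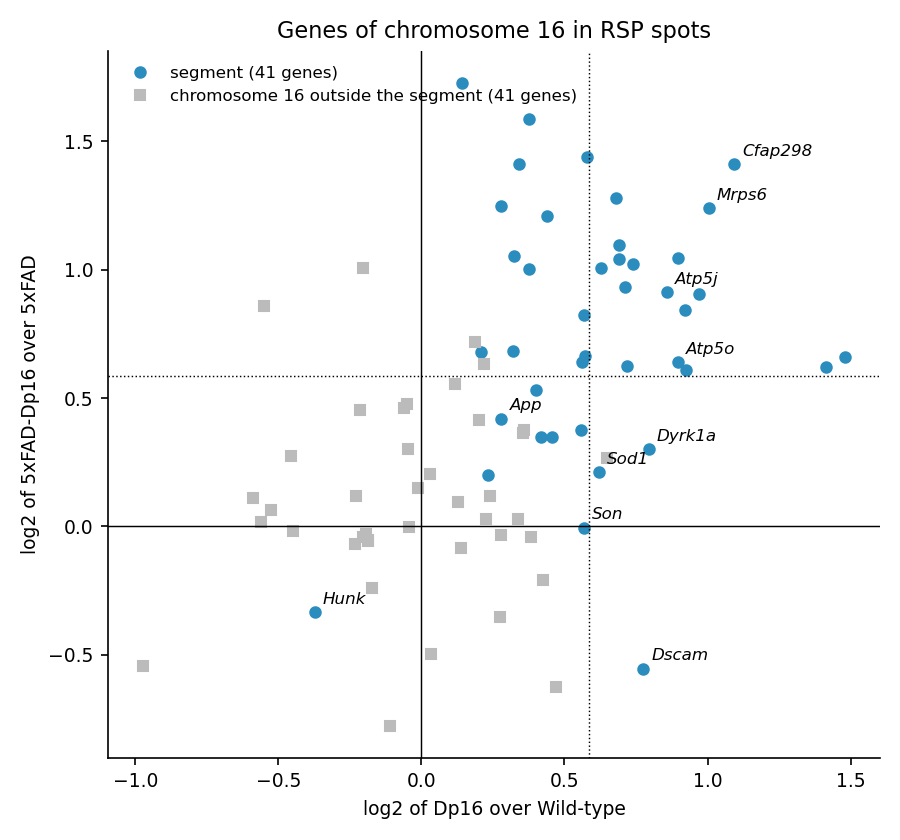
log2 ratio of Dp16 over Wild-type (horizontal axis) against that of 5xFAD-Dp16 over 5xFAD (vertical axis) in RSP spots for 41 genes of the duplicated segment and 41 genes of chromosome 16 outside it. Dotted lines mark 1.5-fold. The segment genes lie mostly up and to the right, 17 of them past both dotted lines, and the other genes lie around 0.

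Outside the segment, Nnat, the imprinted gene of neuronatin, had 142 and 113 CPM in the 5xFAD-Dp16 and Dp16 sections, against 54.6 and 35.5 CPM in the 5xFAD and Wild-type sections in RSP spots, with ratios of 1.67 (1.22 to 2.14) and 1.37 (0.81 to 1.98). In other cortex the same pairs gave -0.33 and 0.40. Its Wild-type level in other cortex was 64.8 CPM, and 44.4 CPM without cluster 0. Ifitm3, an interferon-induced membrane protein, had 76.3 and 53.9 CPM in the 5xFAD-Dp16 and Dp16 sections, against 32.4 and 26.2 CPM in the 5xFAD and Wild-type sections, and Cort, the peptide cortistatin of interneurons, had 58.6 and 93.5 CPM in the 5xFAD-Dp16 and Dp16 sections, against 29.0 and 37.3 CPM in the 5xFAD and Wild-type sections. For each, both carriers lay above both sections without the duplication. Without clusters 12 and 13 the Ifitm3 ratio was 0.49 in the first pair, short of 1.5-fold, and 0.82 in the second. Spp1, osteopontin, had 42.0 and 18.9 CPM in the 5xFAD-Dp16 and Dp16 sections, against 20.5 and 5.82 CPM in the 5xFAD and Wild-type sections from few UMIs, and without clusters 12 and 13 its Dp16 over Wild-type ratio was -0.49. Nrip2, Pbdc1, Phf1 and Nudt5 followed by rank, and the second ratio of Nudt5 was 0.52 as a mean over spots.

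The lowest genes with Dp16 were Sdc3, a neuronal syndecan with 31.0 and 29.7 CPM in the 5xFAD-Dp16 and Dp16 sections, against 64.8 and 58.2 CPM in the 5xFAD and Wild-type sections, Agap2, the sodium-calcium exchanger Slc8a2 with 12.2 and 23.4 CPM in the 5xFAD-Dp16 and Dp16 sections, against 42.6 and 44.8 CPM in the 5xFAD and Wild-type sections, and the calcium channel Cacna1i. Their ratios were -0.97 and -1.07 for Sdc3 and -0.94 and -1.81 for Slc8a2. Of 27 synaptic genes 2 were called lower, Camk2a and Nptxr, 20 were below 0 in both pairs, and the medians were -0.41 and -0.39 in RSP and -0.20 and -0.13 in other cortex. Nptxr had 66.3 and 91.7 CPM in the 5xFAD-Dp16 and Dp16 sections, against 118 and 164 CPM in the 5xFAD and Wild-type sections in RSP, with ratios of -0.84 (-1.18 to -0.51) and -0.83 (-1.35 to -0.31), against -0.27 and 0.02 in other cortex. Of 11 activity-regulated genes, Egr3 and Egr4 were called lower and 10 were below 0 in both pairs. Their medians were -0.74 and -0.17 in RSP and -0.76 and -0.31 in other cortex. Over all 6388 genes, 1834 were below 0 in both Dp16 pairs. Slc17a7 had ratios of -0.59 and -0.54.

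Of 65 nuclear genes of oxidative phosphorylation 58 were above 0 in both Dp16 pairs and none was called. Their medians were 0.29 and 0.21 in RSP and 0.06 and 0.06 in other cortex, beside -0.01 and 0.07 over all genes in RSP. Over all 6388 genes, 2120 were above 0 and 1834 below 0 in both pairs. Of 13 genes of the mitochondrial genome 12 were below 0 in both, with medians of -0.19 and -0.58 in RSP. In other cortex their medians were 0.38 and -0.14. The median share of mitochondrial UMIs per RSP spot was 12.6% and 14.7% in 5xFAD-Dp16 and Dp16, against 18.9% and 18.0% in 5xFAD and Wild-type. The share therefore moved with the Dp16 groups in RSP. In other cortex it was 12.8% and 16.7% in 5xFAD-Dp16 and Dp16, against 13.6% and 13.7% in 5xFAD and Wild-type. With mitochondrial, ribosomal protein and haemoglobin genes left out, 47 genes were called higher and 130 lower with Dp16, against 63 and 78. That setting leaves out these groups of genes together, so the part of the mitochondrial share alone was not tested. Meningeal genes also moved with the Dp16 section: their 3 compared members had medians of 1.35 and 0.53, and 0.33 and 0.01 without clusters 12 and 13. Ptgds had 2915 and 4411 CPM in the 5xFAD-Dp16 and Dp16 sections, against 2203 and 1059 CPM in the 5xFAD and Wild-type sections, with ratios of 2.06 and 0.40. Without those clusters the Gfap ratio of Dp16 over Wild-type was -0.66, against 0.66 and 0.38 in both pairs with all spots.

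Last, the genotype ratios in RSP spots were set against those in other cortex, for 3012 genes whose mean reached 50 CPM. For Dp16, 18 genes had ratios at least 1.5 times those of other cortex in both pairs (0.598%) and 9 had ratios lower by that much (0.299%). With TMM factors, which rescale the libraries, the split was 10 higher and 14 lower. Pvalb, the calcium-binding protein of fast-spiking interneurons, had 850.1 and 731 CPM in the 5xFAD-Dp16 and Dp16 sections, against 505 and 418 CPM in the 5xFAD and Wild-type sections in RSP spots. In other cortex it had 276 and 280.4 CPM in the 5xFAD-Dp16 and Dp16 sections, against 323 and 309 CPM in the 5xFAD and Wild-type sections. Its ratios were 0.81 (0.66 to 0.95) and 0.75 (0.56 to 0.95) in RSP and -0.14 and -0.22 in other cortex, so the carriers stood above the others in RSP and below them in the pool of other cortex. Nnat and the haemoglobin genes Hbb-bs, Hbb-bt and Hba-a1, whose levels follow blood left in the tissue, were the other highest.

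The lowest differences with Dp16 were those of Bc1, a neuronal noncoding RNA, Rasgrf2, Ano3, D430041D05Rik and Calb1. Bc1 had 4223 and 2604 CPM in the 5xFAD-Dp16 and Dp16 sections, against 5069.6 and 4314 CPM in the 5xFAD and Wild-type sections in RSP spots, with ratios of -0.73 and -0.26 against 0.24 and 0.45 in other cortex. Rasgrf2, an exchange factor of upper layer neurons, had ratios of -0.67 and -1.21 in RSP and 0.02 and 0.35 in other cortex. In 5xFAD, 3 genes were higher in RSP than in other cortex by this measure (0.0996%), Rnf114, Trem2 and Kcnj10, and 2 were lower (0.0664%), Calb1 and Cpne6. Trem2 had ratios of 2.90 and 2.75 in RSP and 1.96 and 1.94 in other cortex. Calb1, calbindin, had 29.8 and 42.6 CPM in the 5xFAD-Dp16 and 5xFAD sections, against 53.9 and 75.1 CPM in the Dp16 and Wild-type sections in RSP spots. In other cortex it had 159 and 142 CPM in the 5xFAD-Dp16 and 5xFAD sections, against 144 and 128 CPM in the Dp16 and Wild-type sections. Its ratios were -0.82 and -0.85 in RSP and 0.16 and 0.14 in other cortex, so that calbindin was lower in carriers in RSP and slightly higher in them in the pool of other cortex. These differences rest on 1 section per genotype and were not tested.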

How the data were processed

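The authors deposited raw UMI counts per gene and spot for 4 Visium sections, with a spot table of region labels, expression clusters, plaque marks and, per the file headers, the percent of mitochondrial counts. Per the submitters' processing notes Space Ranger, Seurat and the mm10 build were used; versions are not given in the sources used here. All deposited spots were kept, no doublet caller was run since spots are not cells, and 0 columns of per-sample values were left unused. Region abbreviations were not expanded.

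Counts were summed per section and spot set. RSP and other cortex were compared with edgeR 4.0.16 (quasi-likelihood test, TMM, robust, section as a block, 8 sums, filter at a mean of 5 CPM) and Benjamini-Hochberg adjustment at 0.05; log2 fold changes and SE come from that fit. Both sums of a pair come from the same section, which is the source of the pairing. DESeq2 1.42.0 was an alternative. Genotype and plaque contrasts have 1 section per group and no test: log2 ratios of CPM carry exact conditional binomial (Clopper-Pearson) intervals at 95%, with a floor of 3 counts for a count of 0, and a call needs 1.5-fold in both pairs (mean of at least 20 CPM, or 50 CPM for differences). Shares of spots were thinned to 5000 UMIs, with exact binomial intervals. All intervals and floors cover counting error only. Points of log2 by section use a pseudocount of 0.5 UMIs. The fits and intervals were tested on simulated data.

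Genes were named by rule: 15 highest and 10 lowest region genes that passed against the pool and each of 3 labels, with the same direction in 4 sections and at least 20 CPM on the higher side; 8 each way per genotype effect, with segment genes ranked apart (6 highest, 3 lowest); 5 each way for differences; 8 highest and 4 lowest for plaque spots; the 3 most abundant and the extreme members of lists; and a set always named. Members, the 30 lists (97 genes in the segment list) and rules were chosen with earlier results of these data known. The p-values weigh the difference between RSP and other cortex against its spread over 4 sections of different genotype. Differences in level between sections are taken up by the block. Alternatives were other scalings, filters and thresholds, leaving out sections, clusters 12 and 13, or plaque spots, a wider cortex, and, chosen after seeing the data, spots of cluster 2 or 5 only and leaving out cluster 0. R 4.3.3, Python 3.11.15, numpy 2.4.6, scipy 1.17.1, pandas 2.3.3 and matplotlib 3.10.9 were used. Some genes are not reported here.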

Additional observations from a re-analysis of the deposited data

Results flagged for a closer look

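In 3 of the named region genes 1 section lay far from the other 3 in its log2 ratio of RSP over other cortex, which chance gives in about 1 in 20 groups of values. Cbln1 was lowest in Wild-type, at 0.94. Amn was lowest in Wild-type, at 0.53. Kcnip2 was lowest in 5xFAD, at -2.05, where the RSP sum was also the shallowest.

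Some genes differed in opposite directions, and none of these differences was tested. Ifnar2 was higher in RSP than in other cortex in both 5xFAD carriers and lower in both other sections, with a difference of 0.58 between the means of the log2 ratios. With Dp16 the ratios in RSP and other cortex had opposite signs in both pairs for Pvalb (smaller difference 0.95), Bc1 (-0.71), Rasgrf2 (-0.69), Calb1 (-0.65) and Tyrobp (-0.31). With 5xFAD this was so for Calb1 (-0.98), Kcnj10, an astrocytic potassium channel (0.65), and Yars, a tRNA synthetase (-0.57).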

How the results depend on the processing

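The section block is the pairing of this test, since both sums of a pair come from 1 section. With no replicate block 301 genes were higher in RSP and 243 lower, against 631 and 548 with it, and 22 of the 25 genes named by rank still passed. DESeq2 called 230 and 218, with all 25 kept. Leaving out 1 section at a time gave 372 to 562 higher and 306 to 550 lower, with all 25 kept each time. Counts were 269 and 269 without plaque and neighbour spots (23 kept), 1286 and 1163 with olfactory cortex and subplate included (24 kept), 234 and 235 for spots of cluster 2 only (22 kept) and 148 and 202 for cluster 5 only (17 kept); the last pair of settings was chosen after seeing the data. With the wider cortex Arc (0.33), Fos (0.032) and Snap25 (0.45) reversed, and C1qa did in cluster 5 only (-0.0060); the cause was not tested.

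No paired analysis was possible because the genotypes share only 1 replicate number each, and an additive model over the 4 sections was not run. The Dp16 count of genes higher was 149 at 10 CPM, 25 at 50 CPM and 7 at 2-fold. The count lower was 193, 14 and 0 under those settings, and 130 without mitochondrial, ribosomal protein and haemoglobin genes. The 5xFAD count higher was 130, 26 and 26 under the first 3 settings and 116 without plaque and neighbour spots, and the count lower was 171, 9, 3 and 282. The Dp16 differences between RSP and other cortex numbered 10 higher and 14 lower with TMM factors. Without plaque and neighbour spots the 5xFAD-Dp16 over Dp16 ratios of Ajap1 (0.062), Arhgap32 (0.062) and Ifnar2 (-0.13) reversed. Only 13 RSP spots of 5xFAD-Dp16 were left in that setting, with 4 UMIs of Ifnar2. Without clusters 12 and 13 Dp16 over Wild-type reversed for Gfap (-0.66) and Spp1 (-0.49), and the hippocampal list did for 5xFAD over Wild-type at 5 CPM (0.071).

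Plaque contrasts numbered 178 and 120 with neighbours on the unmarked side and 79 and 70 at 2-fold. Plaque spots with their neighbours made up 83.1% and 69.7% of RSP spots in 5xFAD-Dp16 and 5xFAD. Unthinned Tshz2 shares were 61.0%, 56.0% and 49.0% in 5xFAD-Dp16, Dp16 and Wild-type. At 2 UMIs they were 9.33%, 6.78%, 12.7% and 4.48% in 5xFAD-Dp16, 5xFAD, Dp16 and Wild-type, and those of Cst7 or Itgax were 13.3% and 15.3% in 5xFAD-Dp16 and 5xFAD. Depth limits the plaque contrast, whose smallest sums are 115570 UMIs for plaque spots of 5xFAD and 127841 UMIs for unmarked RSP spots of 5xFAD-Dp16.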

Other observations

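Interneuron genes did not move as 1 group in RSP spots. Sst, somatostatin, had 554 and 425 CPM in the 5xFAD-Dp16 and 5xFAD sections, against 860.3 and 703 CPM in the Dp16 and Wild-type sections, with log2 ratios of -0.73 and -0.64 in RSP and -0.15 and -0.48 in other cortex for its 2 pairs of sections. It was the only one of 12 inhibitory neuron genes called lower with 5xFAD, as Pvalb was the only one called higher with Dp16. The Sst ratios for Dp16 were 0.29 and 0.38.

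The makeup of RSP by expression cluster differed between sections. Cluster 2 held 30, 26, 53 and 58 and cluster 5 held 17, 37, 26 and 49 of the RSP spots of the 5xFAD-Dp16, 5xFAD, Dp16 and Wild-type sections. Cluster 11 held 9 and 10 RSP spots in 5xFAD-Dp16 and 5xFAD and none in Dp16 and Wild-type. Cluster 12 held 12 of 109 RSP spots in Dp16 and 3 of 149 in Wild-type.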
